A study of Mus musculus with 24 samples.

Results

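The integrin adhesion complex of the *M. gastrocnemius* was followed through 10 genes: the integrin subunits *Itgb1*, *Itga7*, *Itga5* and *Itgb5*, the core of the cytoplasmic complex *Ilk*, *Lims1* and *Parva*, and the actin linkers *Tln1*, *Tln2* and *Vcl*. Every non-control probe that the scanner files name for one of these genes was taken, which gave 17 of the 55681 probes on the array and 10 of its 22328 named genes. The genes were chosen by the measured Hypox-against-Norm differences of these same arrays, that of *Lims1* among them, so those differences are given here as a description. P-values and calls of the members, where printed, come from the same contrast, and nothing is read from them.

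The Hypox group held 12 mice that spent 6 h at 12% oxygen, and the Norm group 12 mice kept at 20.9% oxygen for the same time. Both groups consisted of individually housed male C57BL/6JOlaHsd mice that had come at 10 weeks of age, had eaten a purified diet with 10% of its energy as fat for 3 weeks and then one with 40% for 6 weeks, and were without food during the exposure. The diet and the fasting were thus shared by both groups, and no lean or fed mice were among the samples. RNA of each muscle was labelled with Cy5 and hybridised with a Cy3-labelled pool of all samples. The log2 ratio of Cy5 to Cy3, here called the log2 ratio, therefore states the level of a transcript in 1 mouse relative to the pool, and a difference of 1 on this scale is a doubling.

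Integrins are receptors of an α and a β chain that hold a cell to its matrix. In skeletal muscle, integrin α7β1 binds laminin at the fibre membrane and is enriched where the fibre meets the tendon and the nerve. The short tail of the β chain recruits talin, which turns the receptor on and ties it to actin, and vinculin strengthens that tie. Integrin-linked kinase, encoded by *Ilk*, binds the LIM-domain protein PINCH1, encoded by *Lims1*, and α-parvin, encoded by *Parva*. These proteins form one complex, and each of them is known to be less stable when a partner is missing.

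Every one of the 6 slides carried 2 arrays of each group. Arrays differed in mean Cy5 signal, with values of 58.3 to 933 for Norm and 63.5 to 1014 for Hypox, and slide 1 was the dimmest of the 6. Probes entered the test if their Cy5 signal averaged more than 2 times the background around the spot and was missing on no more than 4 arrays, as held for 14421 of the 55681 probes. The labelled tissue was borne out by its markers, as all 8 muscle fibre markers were past this filter. No log2 ratio of a bulk muscle can tell fewer cells of a type apart from less RNA per cell.

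Both *Lims1* and *Itgb1* were read by more than one probe past the filter, and the probes of a gene did not give the same difference between the groups. The sequences show which part of each transcript was read. They are given from the array design, 5′ to 3′, with coordinates of mouse build mm9. The first is the *Lims1* probe that starts at base 1150 of its transcript and lies at chr10:57884263-57884316 on the plus strand as far as it is shown here. The capitals mark the in-frame stop codon, so it reads the end of the coding part. The second and the third are the *Itgb1* probes at base 1840, chr8:131246349-131246408, and at base 2631, chr8:131250081-131255976, both on the plus strand. The last is the *Ilk* probe at base 1423, chr7:112891066-112891125, plus strand, shown because *Ilk* was the member with the largest difference upwards.
Lims1, base 1150: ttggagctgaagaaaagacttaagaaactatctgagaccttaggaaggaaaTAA
Itgb1, base 1840: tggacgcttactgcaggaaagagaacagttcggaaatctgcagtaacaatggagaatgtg
Itgb1, base 2631: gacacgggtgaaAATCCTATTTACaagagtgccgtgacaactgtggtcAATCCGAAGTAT
Ilk, base 1423: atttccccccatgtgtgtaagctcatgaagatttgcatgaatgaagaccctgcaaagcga

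The *Itgb1* probe at base 1840 reads the part that encodes the cysteine-rich stalk outside the cell. The *Itgb1* probe at base 2631 reads the cytoplasmic tail, and its capitals mark the 2 stretches of 12 bases, at positions 13 and 49 of the probe, that encode the NPxY-type motifs bound by talin and the kindlins. Its 60 bases spread over 5896 bases of the genome, so it crosses a splice junction. The tail encoded here is that of the widely made form β1A. Striated muscle is known to make the splice form β1D, with a different tail past that junction, in large part. The second *Lims1* probe, at base 3885 of another *Lims1* transcript, lies at chr10:57886852-57886911, 2589 bases downstream of the first and hence beyond the stop codon.

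*Lims1* had the largest difference of the 10 genes, and it was carried by the probe at the stop codon. At base 1150, the log2 ratio averaged 0.041 ± 0.28 in the Norm and -0.40 ± 0.19 in the Hypox group (mean ± SD, n = 12 per group), a difference of -0.44 with a standard error (SE) of 0.098. As a ratio this is a level in Hypox of 0.736 of that in Norm. The lowest, median and highest Norm arrays were at -0.41, -0.0072 and 0.62, and those of Hypox at -0.87, -0.35 and -0.20. The groups overlapped, but 10 of the 12 Norm arrays lay above every Hypox array and all 12 Hypox arrays lay below the Norm median. Within the slides the difference was negative on 6 of 6, from -0.66 on slide 2 to -0.22 on slide 4. On slide 1, where it was -0.23, the probe was not well above background on any array.

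The downstream *Lims1* probe gave another picture. At base 3885, the log2 ratio was -0.25 ± 0.14 in Norm and -0.27 ± 0.17 in Hypox, a difference of -0.020 (SE 0.070). Norm arrays lay between -0.48 and -0.041 around a median of -0.25 and Hypox arrays between -0.59 and 0.069 around -0.29, so that the groups covered nearly the same range. The difference was negative on 4 slides and positive on 2. Both probes were above background on most arrays, the first on 10 Norm and 10 Hypox arrays and the second on 10 and 11, where the scanner software decides what is well above background.

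Since both *Lims1* probes were read on the same array, their difference leaves out whatever shifts an array as a whole. Base 1150 minus base 3885 was 0.29 ± 0.30 in Norm and -0.13 ± 0.23 in Hypox. On single arrays it lay between -0.12 and 0.84 in Norm (median 0.22) and between -0.54 and 0.22 in Hypox (median -0.14). This value was below the Norm median on 12 of 12 Hypox arrays and below every Norm array on 7 of them, and it was lower in Hypox on 6 of 6 slides. These counts take in slide 1, where the upstream probe was not well above background on any array. On these arrays the Hypox difference of *Lims1* was thus seen at the stop codon, and none beyond its SE was seen at the downstream probe. The downstream probe was the dimmer one, at 4.88 against 8.32 times the background. As the gap holds the *Lims1* difference that took part in the choice of the genes, it is a description only. Which *Lims1* transcripts each probe reads in this muscle was not tested.

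**Figure D1:**
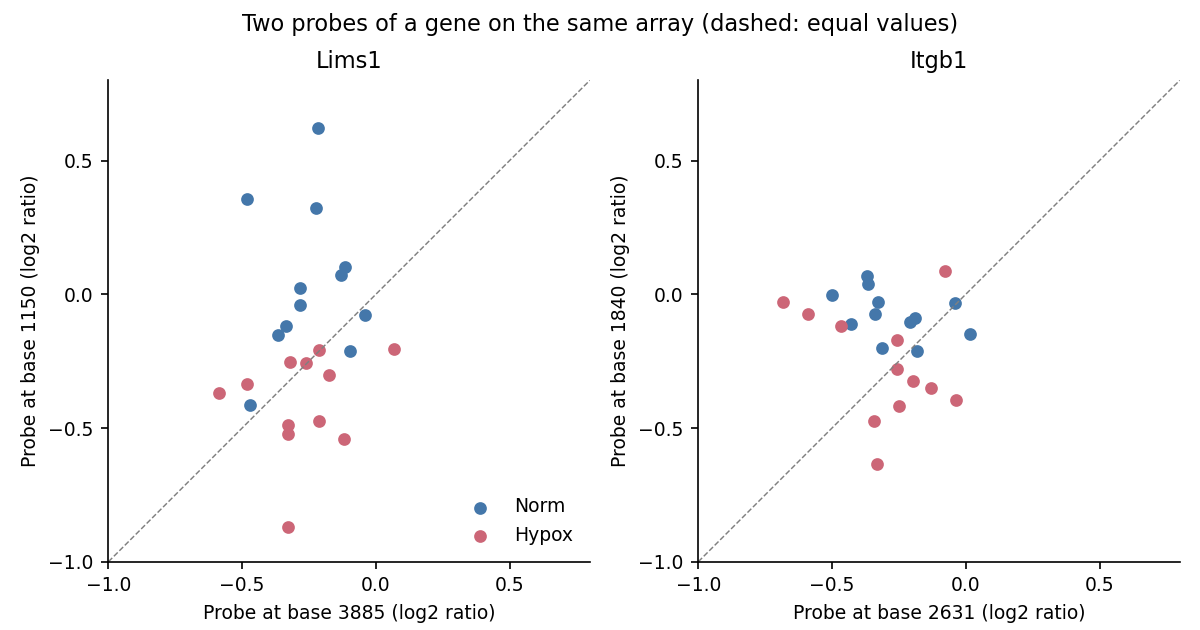
Log2 ratio (Cy5 sample over Cy3 pool) of the upstream probe (vertical axis) against the downstream probe (horizontal axis) of *Lims1* (left) and *Itgb1* (right), a point per array, Norm in blue and Hypox in red, with equal values on the dashed line. For *Lims1* the Hypox arrays sit lower on the vertical axis, at -0.87 to -0.20, while on the horizontal axis 9 of 12 lie in the range of the Norm arrays. For *Itgb1* the Norm arrays sit in a narrow band on the vertical axis, between -0.21 and 0.067.

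Of the integrin receptor genes, *Itgb1*, the β chain that most integrins of muscle share, was lower in Hypox at its stalk probe. At base 1840 the log2 ratio was -0.075 ± 0.088 in Norm and -0.27 ± 0.21 in Hypox, a difference of -0.19 (SE 0.071) and a level in Hypox of 0.876 of that in Norm. Norm arrays lay between -0.21 and 0.067 (median -0.080) and Hypox arrays between -0.63 and 0.088 (median -0.30). The Hypox arrays were thus spread more widely, with 7 of them below every Norm array and 1 above every Norm array. The SD of the Norm arrays was small for this array platform, where the median SD over all tested probes in Norm was 0.22. The difference was negative on 5 of 6 slides and largest on slide 6, at -0.46.

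At the tail probe of *Itgb1*, base 2631, the log2 ratio was -0.27 ± 0.15 in Norm and -0.30 ± 0.20 in Hypox, a difference of -0.032 (SE 0.076). The lowest, median and highest arrays were -0.50, -0.32 and 0.016 in Norm and -0.69, -0.26 and -0.036 in Hypox, and the groups overlapped throughout. Stalk minus tail on the same array was 0.20 ± 0.21 in Norm and 0.037 ± 0.33 in Hypox, and it was lower in Hypox on 4 of 6 slides. This gap between the *Itgb1* probes depended on the processing. With the scanner software's processed signals the difference was -0.29 at the stalk and -0.27 at the tail, and with Cy5 alone it was -0.082 and -0.023.

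*Itga7*, the laminin-binding α chain of muscle, varied more among the mice than between the groups. Its probe at base 3953 gave -0.033 ± 0.33 in Norm and 0.15 ± 0.48 in Hypox, a difference of 0.18 (SE 0.16). Single mice lay between -0.55 and 0.55 in Norm (median 0.040) and between -0.63 and 1.41 in Hypox (median 0.12). The highest value belonged to Hypox replicate 2 on slide 3, and without that array the difference was 0.069. *Itgb5*, the β chain of the vitronectin receptor αvβ5, was -0.41 ± 0.18 in Norm and -0.49 ± 0.20 in Hypox (arrays between -0.69 and -0.15, and between -0.75 and -0.11). Its difference of -0.082 (SE 0.080) was negative on 5 of 6 slides. *Itga5*, the α chain of the fibronectin receptor, was not well above background on any of the 24 arrays, so that no level or fold is given for it.

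In the cytoplasmic complex, *Ilk* differed in the direction opposite to *Lims1*. The probe at base 1423 gave -0.65 ± 0.33 in Norm and -0.40 ± 0.20 in Hypox, a difference of 0.25 (SE 0.11) and a level in Hypox of 1.19 times that in Norm. Lowest, median and highest were -1.37, -0.63 and -0.15 in Norm, and -0.75, -0.38 and -0.088 in Hypox. Of the 12 Hypox arrays, 11 lay above the Norm median, and 4 Norm arrays lay below every Hypox array. The difference was positive on 5 of 6 slides, at 0.037 on the dimmest slide and between 0.27 and 0.44 on the other 4, with -0.058 on slide 4.

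*Parva*, whose protein α-parvin links ILK to actin, had 3 probes, and none of them reached the filter on signal. The best read of these, at base 3893, was well above background on 3 Norm and 7 Hypox arrays and gave -0.19 ± 0.20 in Norm and -0.13 ± 0.12 in Hypox, a difference of 0.063 (SE 0.067). The probe at base 1671 was well above background on 2 arrays of each group, at -0.028 and -0.056 in Norm and at -0.080 and 0.20 in Hypox. The probe at base 2271 was not well above background on any Hypox array and was so on 2 of the 12 Norm arrays, at 0.28 and 0.51, so that no fold is given for it. The arrays thus gave no firm level for the third protein of the complex.

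For the actin linkers of the integrin tail, the ranges of the groups overlapped widely. Talin 1, encoded by *Tln1*, which activates integrins in most cells, was read by its probe at base 8492 at -0.38 ± 0.23 in Norm and -0.48 ± 0.23 in Hypox. Norm arrays lay between -0.78 and -0.073 and Hypox arrays between -0.93 and -0.11, and the difference of -0.10 (SE 0.093) was negative on 3 slides and positive on 3. The other *Tln1* probe, at base 3939, was well above background on 2 Norm arrays and 1 Hypox array.

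*Tln2* encodes talin 2, the talin of mature muscle fibres, and its probe at base 12016 gave -0.12 ± 0.25 in Norm and -0.051 ± 0.24 in Hypox, a difference of 0.071 (SE 0.099). Arrays lay between -0.54 and 0.40 in Norm and between -0.52 and 0.34 in Hypox. The second *Tln2* probe, at base 11023, was well above background on 1 Norm array and no Hypox array. *Vcl*, which encodes vinculin, was read at base 4438 at -0.24 ± 0.14 in Norm and -0.34 ± 0.20 in Hypox, a difference of -0.10 (SE 0.076) that was negative on 5 of 6 slides, and 3 Hypox arrays lay below every Norm array. Its probe at base 3009 was well above background on 2 Hypox arrays and no Norm array. No fold is given for the dimmer probes of *Tln2* and *Vcl*.

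**Figure D2:**
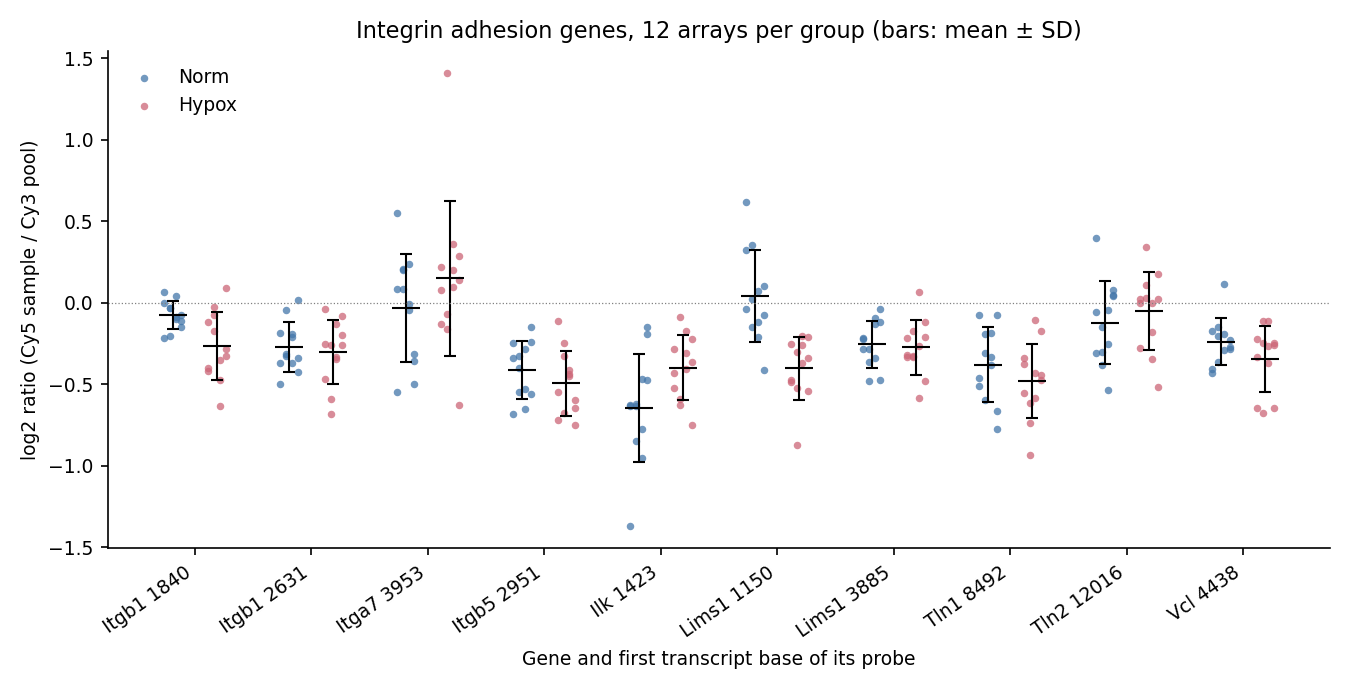
Log2 ratio (Cy5 sample over Cy3 pool) of each array for the 10 member probes past the filter, named by gene and first transcript base, Norm in blue and Hypox in red, with mean ± SD in black (n = 12 per group). The Hypox points of *Lims1* at base 1150 lie below most Norm points, those of *Ilk* lie higher, and *Itga7* has 1 Hypox array at 1.41.

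Of the 17 member probes, 10 probes of 8 genes were past the filter, and *Itga5* and *Parva* had none. Over all tested probes, 13.8% had an unadjusted P-value under 0.05 in limma's moderated test, and 3 of the 10 member probes did, *Ilk* higher (7.40% of all probes) and *Lims1* at base 1150 and *Itgb1* at base 1840 lower (6.44% of all probes). After Benjamini-Hochberg adjustment over all probes 0.943% passed, and the *Lims1* probe was among these. That call was lost with the replicate block, no filter, Cy5 alone, median centring or the deposited values, with adjusted P-values of 0.0611 to 0.8 in limma, and in 3 of 24 fits with a single array removed. A difference below 0 on every slide was found for 4.43% of all probes, and *Lims1* at base 1150 was the only member probe with one, while no member probe was above 0 on every slide, as 4.56% of all probes were. These counts and the calls of the members come from the contrast that chose the genes, so nothing is read from them. No tested probe of the array had groups that did not overlap.

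**Figure D3:**
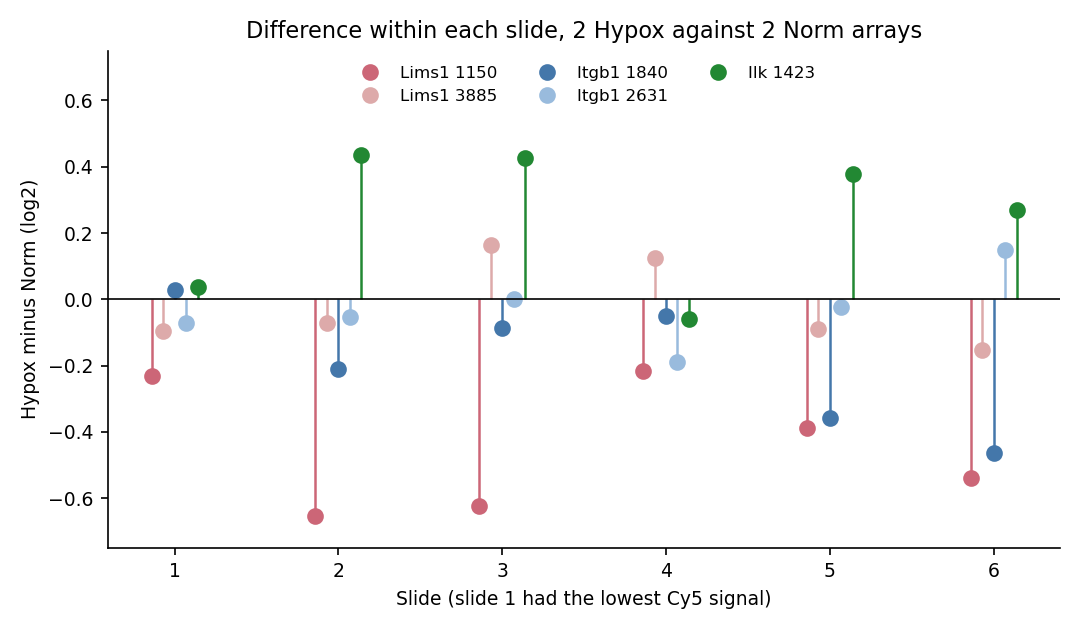
Hypox minus Norm in log2 ratio within each of the 6 slides (2 arrays per group and slide) for both probes of *Lims1*, both of *Itgb1* and the probe of *Ilk*, each point at the end of its line from 0. *Lims1* at base 1150 is below 0 on 6 of 6 slides, and *Ilk* is above 0 on 5 of 6. On slide 1 the *Lims1* probe at base 1150 was not well above background on any array.

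The other genes of integrin adhesion were described through 6 lists with 87 genes, each gene by its brightest probe, of which 57 had a probe past the filter. At an unadjusted P-value under 0.05, Hypox was higher in 3 genes and lower in 2, which is 8.77% of the 57, against 11.9% over the 9186 genes with a probe past the filter (6.98% higher and 4.93% lower). None of the 57 passed after adjustment over all probes. The median difference of the 57 genes was -0.00019, beside 0.029 for all genes. The lists thus showed no larger share of differing genes than the array as a whole.

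Among the other integrin subunits, 6 of 14 genes were past the filter and 1 of them was lower, with a list median of -0.056. *Itga11*, the α chain of a collagen receptor of fibroblasts, fell by 0.25 on the log2 scale (SE 0.10, P-value = 0.0217, adjusted P-value = 0.265 in limma). It differed by -0.57 with the processed signals and missed the threshold with Cy5 alone (P-value = 0.0887), array weights (0.0665) and median centring (0.865). *Itgb6*, an epithelial β chain, differed by -0.14 and *Itgav*, the αv chain, by -0.073. *Itga6*, the α chain of a laminin receptor, gave 0.29 (SE 0.17, P-value = 0.104) at its brightest probe and -0.23 (SE 0.10, P-value = 0.0279) at its other probe, so that its probes disagreed in direction. *Itga1*, *Itga2*, *Itga3*, *Itga8*, *Itga9*, *Itga10*, *Itgb3* and *Itgb8* were not past the filter.

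Of the activators and inhibitors that act on the β tail, 10 of 14 genes were past the filter and 1 was higher, with a list median of 0.074. This was *Itgb1bp1*, encoding ICAP-1, a protein that binds the β1 tail and competes with talin there, which rose by 0.20 (SE 0.097, P-value = 0.0497, adjusted P-value = 0.360 in limma). Its P-value lay next to the threshold and stayed below it in 9 of 24 repeats of the fit with a single array removed. It was missed with Cy5 alone (0.11, P-value = 0.296), the deposited values (P-value = 0.173), array weights (P-value = 0.207), median centring, the methods' t-test, the stricter filter and without the dimmest slide. *Rap1b*, a small GTPase that brings talin to integrins, differed by 0.12. *Flnc*, the filamin of muscle, differed by -0.17 and *Kank1* by -0.041. *Fermt2*, encoding kindlin-2, which binds the β tail beside talin, differed by 0.048 (SE 0.12).

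The partners of ILK, PINCH and parvin held no gene past the threshold among the 9 of 13 past the filter, and their median difference was -0.020. *Lims2*, encoding PINCH2, the close relative of the *Lims1* product that can take its place beside ILK, differed by 0.011 (SE 0.099, P-value = 0.909). *Rsu1*, encoding a protein that binds PINCH1, differed by -0.032 (SE 0.087). The adaptor genes *Nck2* and *Nck1*, of which the first encodes a PINCH1 partner, differed by 0.15 and 0.11. *Arhgef6*, encoding the parvin-binding exchange factor α-PIX, differed by -0.11 and *Git2*, whose protein binds the PIX factors, by -0.094. No difference beyond the spread between mice was detected for these partners, and *Parvb*, *Parvg*, *Pxn* and *Lpxn* were not past the filter.

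None of the 14 actin linker genes past the filter, of 20 listed, passed the threshold, and their median difference was -0.028. The α-actinin gene *Actn4* came closest, at -0.17 (SE 0.091, P-value = 0.0781), followed by the muscle LIM protein gene *Pdlim5* at -0.20 and the tensin gene *Tns1* at -0.16. At their other probes *Pdlim5* differed by -0.039 (SE 0.11) and *Tns1* by -0.17 (SE 0.15). *Pdlim7* differed by 0.16 (SE 0.16) at its brightest probe and by -0.16 (SE 0.14) at its other probe. *Vasp* and *Tns3* differed by 0.063 and 0.070. Of the adhesion kinases and adaptors, 6 of 12 were past the filter, 1 was lower and none higher, and the median was 0.046. *Crk*, an adaptor that binds phosphorylated p130Cas and paxillin, fell by 0.24 (SE 0.074, P-value = 0.00313, adjusted P-value = 0.126 in limma), was lower on 5 of 6 slides and passed the unadjusted threshold in 24 of 24 such repeats, but not with the processed signals, Cy5 alone, median centring or the deposited values, where it differed by -0.23, -0.14, 0.0027 (-0.24 relative to the median of all probes) and -0.15. *Ptk2*, which encodes focal adhesion kinase, differed by 0.15, *Pak2* by 0.13 and *Bcar1*, encoding p130Cas, by 0.12. *Dock1* differed by -0.061 and *Ptk2b* by -0.031.

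Among the ligands, 12 of 14 genes were past the filter, 2 were higher and none lower, with a median of 0.076. These were the paired chains of basement membrane collagen IV. *Col4a1* rose by 0.21 (SE 0.090, P-value = 0.0303, adjusted P-value = 0.302 in limma) and *Col4a2* by 0.25 (SE 0.12, P-value = 0.0436, adjusted P-value = 0.342), each on 5 of 6 slides. With single arrays removed, they stayed below the threshold in 19 and 10 of 24 fits. Both missed it with median centring, *Col4a1* also with Cy5 alone (P-value = 0.069) and the deposited values (0.0555), and *Col4a2* with the methods' t-test (0.0535), the replicate block (0.0723) and without the dimmest slide (0.0664). *Lama4*, a laminin chain of blood vessels, differed by 0.11, and *Lama2*, the laminin chain of the fibre's own basement membrane and the ligand of α7β1, by -0.025 (SE 0.079). The other probe of *Lama2* gave 0.070 (SE 0.091). *Lamc1* differed by -0.080 and *Fn1*, fibronectin, by -0.0093 (SE 0.18).

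**Figure D4:**
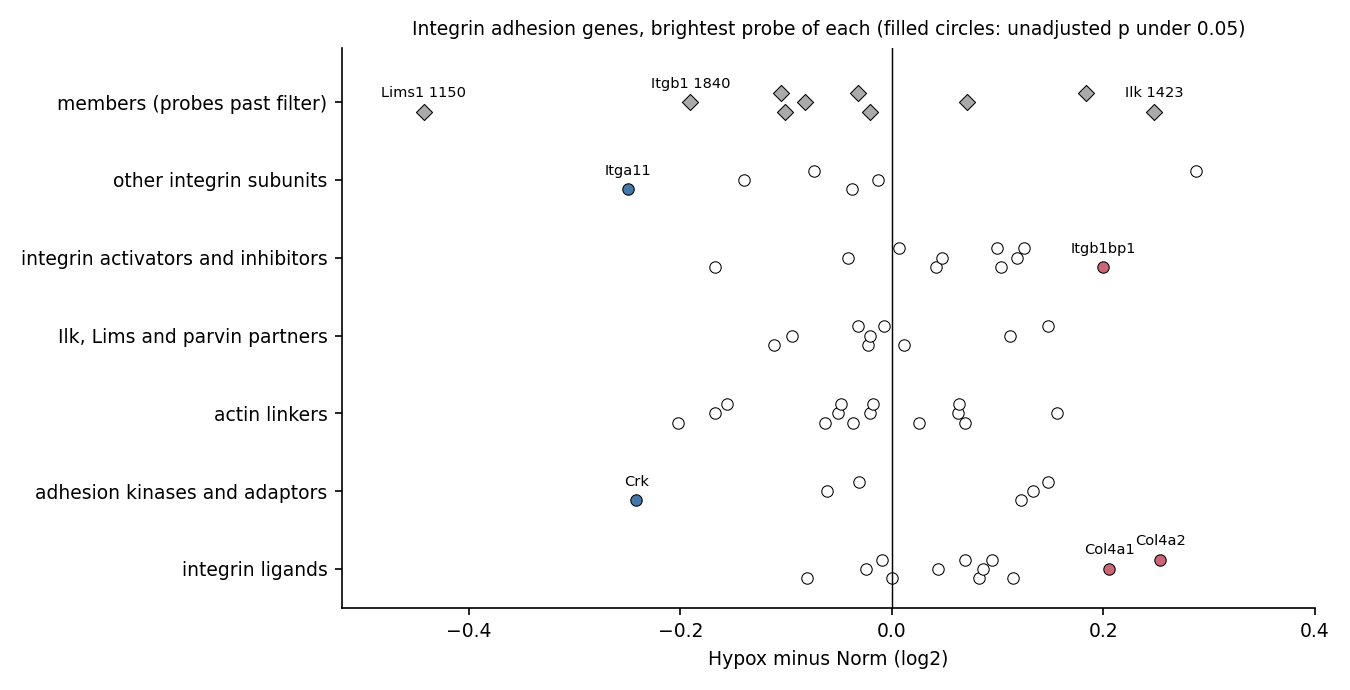
Hypox minus Norm in log2 ratio for the 10 member probes (grey diamonds, P-values not marked) and for the 57 genes of the 6 adhesion lists (circles, each gene by its brightest probe). Filled circles passed an unadjusted P-value of 0.05, red higher and blue lower in Hypox, and 52 of the 57 circles are open.

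Integrin adhesion genes are used by most cells of a muscle, and markers of several cell types moved between the groups beside the values above. Of 6 Schwann cell markers past the filter 3 were lower (*Prx* and *Pmp22* among them), of 4 adipocyte markers 2 (*Cfd* and *Adipoq*) and of 8 fibroblast markers 2 (*Col1a2* and *Dcn*), while of 7 endothelial markers 2 were higher (*Cdh5* and *Esam*), beside 4.93% of all genes lower and 6.98% higher. The fibroblast list did not go one way, as *Col3a1* differed by 0.22. In the endothelial list, *Kdr* differed by -0.15 (SE 0.12) at its brightest probe and by 0.10 (SE 0.075) at its other probe, so that its probes disagreed in direction. The median difference was 0.026 for the fibroblast, 0.11 for the endothelial, -0.17 for the Schwann and -0.23 for the adipocyte list. The mean log2 ratio of the Schwann list ran from -0.37 to 0.48 over the Norm arrays and from -0.58 to 0.18 over the Hypox arrays, and that of the adipocyte list from -0.78 to 0.90 and from -0.92 to -0.15. The fibroblast list lay between -0.43 and 0.19 in Norm and between -0.39 and 0.38 in Hypox, and the endothelial list between -0.27 and 0.15, and between -0.11 and 0.047. None of 7 smooth muscle and pericyte markers and none of 3 leukocyte markers passed the threshold, and 1 of 8 muscle fibre markers, *Mylpf*, was higher. The muscle fibre list did not go that way as a whole. Its median difference was -0.17, and its genes ran from -0.59 (SE 0.35) for *Myh4* to 0.36 (SE 0.098) for *Mylpf*.

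The defining markers *Pecam1*, *Tek* and *Emcn* of endothelium, *Ptprc*, *Adgre1*, *Itgb2*, *Lyz2* and *Cd14* of leukocytes and *Plin1* and *Lep* of adipocytes were not past the filter, nor was any of the 5 satellite cell markers. Of 6 lung markers, listed as a sign of stray tissue, only *Sftpc* was past it, and it was higher by 0.81 (SE 0.32), with arrays between -2.04 and -0.16 in Norm and between -1.40 and 2.58 in Hypox. The part of these cell types in the differences of *Lims1*, *Itgb1*, *Ilk*, *Itga11*, *Crk* and the collagen IV genes was not tested.

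The measure that the choice of the genes did not use is how partners vary together among mice of the same group. For 6 pairs of genes with proteins known to bind each other, the group mean on each slide was taken off, and the residuals were correlated over the 24 arrays with an exact permutation test (2-sided) that swapped the 2 arrays of a group on a slide. *Ilk* and *Lims1* at base 1150 gave a Pearson r of -0.58 (exact permutation P-value = 0.0688, Benjamini-Hochberg adjusted over the 6 pairs 0.413) and a Spearman rho of -0.52 (exact permutation P-value = 0.0791, adjusted 0.475). Without the 2 arrays with the largest *Ilk* residuals, the Norm arrays of slide 6, the r was -0.61. The array with the lowest *Ilk* value, Norm replicate 9 at -1.37, stayed in that fit. With single arrays left out, each with the other array of its group and slide, r ran from -0.64 to -0.40. Within the groups, without regard to slide, r was -0.61 over the 12 Norm arrays and -0.20 over the 12 Hypox arrays. The relation did not pass the threshold, and with the processed signals r was -0.020 (exact permutation P-value = 0.969).

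The other 5 pairs were further from it. *Lims1* with *Parva* gave r = 0.38 (rho = 0.26), *Itgb1* with *Itga7* r = 0.37 (rho = 0.26) and *Tln1* with *Vcl* r = 0.21 (rho = 0.14), with exact permutation P-values from 0.274 to 0.518 for r and from 0.412 to 0.680 for rho. *Itgb1* with *Ilk* gave r = -0.12 (rho = -0.10, exact permutation P-values 0.605 and 0.728) and *Ilk* with *Parva* r = -0.043 (rho = -0.17, exact permutation P-values 0.925 and 0.599). After adjustment over the 6 pairs, the P-value of r was 0.726 for 4 of these pairs and 0.925 for *Ilk* with *Parva*. Without the 2 arrays with the largest residuals of the gene named first, these pairs gave r = 0.27, 0.21, 0.028, -0.22 and -0.49 in the same order. *Parva* entered by its probe at base 3893, which was not past the filter. No pair of partners was shown to vary together among the mice.

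As a description over the same 24 arrays, with the group and slide means removed, the 5 genes most like *Lims1* at base 1150 among 9185 others were *Irf2bp2* (r = 0.82), *Nacc2* (r = 0.81), *H2az2* (r = 0.81), *Alas1* (r = 0.81) and *Ammecr1l* (r = 0.81). The median r of all genes with this probe was -0.052, and all of these values share the arrays, the pool and the slide. Of these genes *Irf2bp2* differed between the groups by -0.24 and *H2az2* by 0.11. The downstream *Lims1* probe followed the upstream one with r = 0.36, and the stalk and tail probes of *Itgb1* gave r = -0.40 on this measure.

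The processing moved the members as follows. With the scanner software's processed signals the *Lims1* difference at base 1150 was -0.59, with the Cy5 channel alone -0.42 and with the deposited log2 values -0.40, and it lay between -0.48 and -0.39 when single arrays were removed. Median centring of the arrays, used instead of loess, shifted the median of all probes to 0.24, and relative to that median *Lims1* at base 1150 lay at -0.40, *Itgb1* at base 1840 at -0.24, *Crk* at -0.24 and *Ilk* at 0.25. Not set against that median, *Lims1* at base 1150 gave -0.16 and *Itgb1* at base 1840 gave 0.0049. The *Ilk* difference lay between 0.18 and 0.29 with 1 array left out. The other members were less steady. With the processed signals *Itgb1* at base 2631 differed by -0.27, *Vcl* by -0.37 (SE 0.29), *Itga7* by 0.024 and *Tln2* by -0.044, and with the deposited values *Itgb5* differed by 0.11 and *Tln1* by 0.12.

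**Figure D5:**
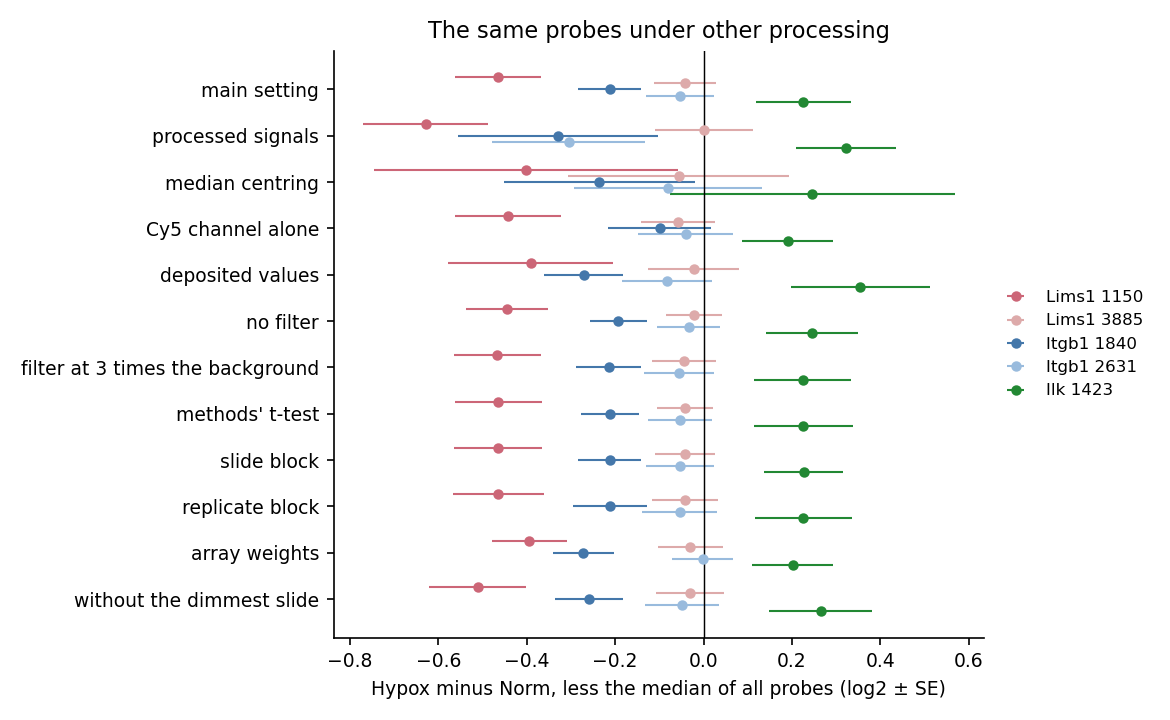
Hypox minus Norm in log2, less the median difference of all probes (point) ± SE (line), for both probes of *Lims1* and *Itgb1* and the probe of *Ilk* under the main setting and 11 other settings of the processing. *Lims1* at base 1150 lies between -0.63 and -0.39 in these 12 settings, and *Ilk* between 0.19 and 0.35.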

How the data were processed

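Muscle RNA of 24 mice was hybridised to two-colour Agilent arrays with individual samples in Cy5 and the pool of all samples in Cy3, as the sample descriptions state, although the dye labels of 5 Hypox samples name other dyes. The authors scanned the arrays and deposited spot intensity values as written by Agilent Feature Extraction (version 10.7.3.1), not yet normalized. They also deposited log2 values for 21335 spots (column median 6.58), which followed the log2 Cy5 signal with a correlation of 0.967 to 0.999 and serve as an alternative here. Coordinates are those of build mm9 in the file headers.

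In limma 3.58.1 (R 4.3.3), the local background was taken off the mean signals by normexp with an offset of 50, log2 Cy5 over Cy3 was normalized by loess within each array, control spots were left out, 7260 flagged readings were set missing, and spots of a probe were averaged. No reading was saturated. Any 2 arrays correlated with r from 0.020 to 0.839 over the tested probes, so no array ran against the others. The groups were compared in limma's moderated test (lmFit and eBayes, no blocking factor), and P-values were adjusted over all tested probes. No depth applies to arrays, and the number of arrays limits the precision. Probes were named by accession (27235), symbol (3581) or synonym (565) through RefSeq, and 24300 stayed unnamed. The fit and the permutation test were tested on simulated data.

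The genes and the lists were chosen with earlier results of these data known. Named are every member by each probe, up to 3 genes with the smallest P-values in each direction per adhesion list, and the 5 genes most like *Lims1*. Some genes that this rule names are not reported here. *Fermt2* was added for its role, and single markers that passed the threshold were named after their values were seen. Alternatives were median centring, the scanner's processed signals, use of Cy5 alone, the deposited values, other filters, the methods' t-test, slide or replicate blocks, array weights, the mean of a gene's probes, and leaving out arrays or the dimmest slide.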

Additional observations from a re-analysis of the deposited data

How the results depend on the processing

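Against 1996 probes, 3 member probes and 5 list genes past an unadjusted P-value of 0.05, median centring gave 57, 0 and 0, and Cy5 alone 1314, 1 and 3. The deposited values gave 974 probes and 3 list genes, no filter 4487 probes, the methods' t-test 1982 probes (86 after adjustment) and 3 list genes, and array weights 10. Leaving out 1 array gave 1708 to 2262 probes, 2 to 3 member probes and 2 to 6 list genes, with 2 list genes when Hypox replicate 3 or 5 was removed and 3 when Norm replicate 1, 3, 7, 9 or Hypox replicate 6, 10, 11 was. Calls were 53.5% higher in Hypox, 96.5% with median centring and 43.1% with the deposited values. After adjustment 136 probes passed, 40 to 231 without single arrays, 0 with median centring, 1 with the deposited values, 45 without a filter, 62 with the replicate block and 657 with array weights. *Lims1* at base 1150 lost its adjusted call without a filter (adjusted P-value = 0.0616 in limma), with Cy5 alone (0.111), median centring (0.775), the deposited values (0.8), and when Norm replicate 1, Norm replicate 7 or Hypox replicate 7 was removed (0.0523 to 0.0540), while *Itgb1* at base 1840 missed the unadjusted threshold with the processed signals (-0.29, P-value = 0.204), Cy5 alone (-0.082, 0.487) and median centring, where it turned to 0.0049. *Ilk* missed it with Cy5 alone, median centring and with Norm replicate 6, 7 or 9, or else Hypox replicate 2 or 7, removed. With array weights *Itgb1* at base 1840 (adjusted P-value = 0.032 in limma), *Crk* (0.0346) and *Col4a1* (0.0423) also passed after adjustment. The cause of these changes was not tested. Nothing is read from the calls of the members, as the contrast that chose the members gave these calls.

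For *Ilk* with *Lims1*, r was -0.020 with processed signals, 0.50 with median centring, -0.69 (exact permutation P-value = 0.00586) without the dimmest slide and -0.64 to -0.40 without single arrays. For *Ilk* with *Parva* it was 0.60 with median centring, 0.16 with Cy5 alone and -0.49 to 0.15 without single arrays. For *Itgb1* with *Ilk* it was 0.71 with median centring, 0.22 with processed signals and -0.24 to 0.0044 without single arrays. *Lims1* with *Parva* gave 0.76 and *Tln1* with *Vcl* 0.70 with median centring, and the latter -0.0048 with the deposited values. All 5 pairs named here were positive with median centring, which, unlike loess, keeps differences in the ratio that follow signal strength. Whether such differences lie behind the positive values was not tested.

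Both groups number their replicates 1 to 12. No pairing of the mice by these numbers was seen in the arrays. The deviations of same-numbered arrays correlated above 0.1 in 3 of 12 pairs (r from -0.20 to 0.41), and 2 Norm arrays were most like their own number. A pairing that leaves no such correlation cannot be seen this way. With the replicate block 2046 probes, 3 member probes and 4 list genes passed, and *Lims1* at base 1150 had an adjusted P-value of 0.0611 in limma. Low signal limits *Itga5* and *Parva*, for which these arrays give no firm level.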
